A study of Mus musculus with 30 samples.

Results

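The data described here compare 2 mouse embryonic stem cell lines that had not received doxycycline (DOX): 3 RNA-seq libraries of the line named iETV2-KDM4A (H188A) against 3 libraries of the line named iETV2. Members were chosen by the labels of the samples and by chromosome: of 25516 genes tested, the 20771 placed on an autosome are described. The series holds 30 samples in all, 18 of them RNA-seq. Its design text describes DOX as the agent that turns on ETV2 in the iETV2 line, and ETV2 together with KDM4A in the H188A line. Untreated, both lines carry their inducible constructs but received no inducer, and the labels call both embryonic stem cells. The H188A label names an amino acid change in the catalytic domain of KDM4A, a demethylase of histone H3 lysine 9. The labels assign the iETV2 libraries to experiment 1 and the H188A libraries to experiment 2, so that line and experiment cannot be told apart. They do not say how many clones a line stands for, nor that replicates were separate cultures; p-values measure the spread between these libraries, which may be technical.

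Mouse embryonic stem cells can be held in a naive state, marked by Esrrb, Klf4, Tfcp2l1 and Zfp42 on top of the shared core factors Pou5f1, Sox2 and Nanog. When they leave it they pass through a formative, epiblast-like state and can then enter the primitive streak, where WNT and Nodal signals turn on T (Brachyury), Mixl1 and Eomes. Cells from the anterior streak form definitive endoderm and the node, whose cells carry motile cilia, and cells from the rest of the streak form mesoderm. Primitive endoderm and its derivative, visceral endoderm, are separate extraembryonic lineages that also arise in stem cell cultures. ETV2 is a transcription factor that directs mesoderm to endothelial and blood fates.

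The libraries held 40334911 to 68970038 counts, and levels are given as CPM, a gene's count scaled to the library's total of gene counts. Genes of olfactory, vomeronasal and trace-amine receptors, which stem cells are not known to use, summed to 88.5, 65.2 and 182 CPM in iETV2 and to 598, 195 and 49.1 CPM in the H188A line. In the H188A line, 4857 of 6827 autosomal genes under 1 CPM (71.1%) fell in the same order as these sums, against 1273 of 9045 genes (14.1%) at 10 CPM or more. Of the 26 lower members of the streak, definitive endoderm, paraxial mesoderm and cilia lists described below that were under 1 CPM in the H188A line, 16 (61.5%) fell in that order. How much of such a value is background was not tested. A log2 difference given for a gene under 1 CPM in the H188A line is the fitted value, and its size rests on those low levels. Pearson correlations of log2 CPM were 0.975 to 0.984 between iETV2 libraries, 0.951 to 0.980 between H188A libraries and 0.925 to 0.945 between lines.

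Etv2 (ENSMUSG00000006311, chromosome 7, 30633616 to 30636509, GRCm38) stood at 2.73, 3.02 and 3.05 CPM in the iETV2 line and 0.669, 0.139 and 0.319 CPM in the H188A line. The groups did not overlap, with a log2 difference, H188A minus iETV2, of -3.01 ± 0.30 (SE, adjusted p = 5.74e-07). With DOX it stood at 19.7, 18.1 and 18.2 CPM in iETV2 and 11.5, 18.6 and 15.5 CPM in the H188A line, above the untreated libraries of each line. Kdm4a (ENSMUSG00000033326, chromosome 4, 118136957 to 118180090) was at 83.8, 87.5 and 84.6 CPM in the iETV2 line and 82.8, 86.98 and 80.6 CPM in the H188A line, a log2 difference of 0.02 ± 0.07 (SE, adjusted p = 0.867), so no difference in Kdm4a was detected between the untreated lines. Its relative Kdm4b was lower in the H188A line (from 66.6 ± 1.15 to 35.9 ± 1.64 CPM) and Kdm4c was higher (from 78.4 ± 5.45 to 111 ± 4.58 CPM).

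The untreated lines differed in their state of differentiation. Most listed RNAs of primitive streak, node and paraxial mesoderm were higher in the iETV2 line. Those of naive pluripotency were higher in the H188A line, as were most listed genes of visceral endoderm, neural cells and germline. Genes of cardiac and lateral mesoderm showed no common direction. Of the 20771 genes, 8597 (41.4%) changed at an adjusted p under 0.05 by edgeR's quasi-likelihood test. Of these, 4381 (21.1%) were higher in the H188A line and 4216 (20.3%) lower. Counts of calls in each list below are to be read beside these shares. A log2 difference of at least 1 was met by 1782 higher genes (8.58%) and 1288 lower genes (6.20%). The groups did not overlap in CPM for 11016 genes (53.0%). The median log2 difference of all genes tested was 0.09. Without a filter on low counts, 38.5% of the calls were in the higher direction, against 51.0% with it. In a bulk library, fewer cells of a type and less RNA per cell cannot be told apart.

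The 4 genes that served as markers are given first. T (ENSMUSG00000062327, chromosome 17, 8434423 to 8442496, GRCm38), the Brachyury factor of the streak and notochord, was at 894, 844 and 847 CPM in the iETV2 line and 0.5702, 0.313 and 0.188 CPM in the H188A line. Every iETV2 library stood far above every H188A library, and the H188A values fell in the order of the receptor sums. The fitted log2 difference was -11.30 ± 0.18 (SE, adjusted p = 2.53e-15). Mixl1 (ENSMUSG00000026497, chromosome 1, 180693043 to 180697034), a homeobox factor of the streak, was at 79.2, 74.6 and 70.8 CPM in the iETV2 line and 0.496, 0.609 and 0.333 CPM in the H188A line, with a fitted log2 difference of -7.26 ± 0.17 (SE, adjusted p = 6.12e-14). Both genes were thus among the well-expressed genes of one line and below 1 CPM in every library of the other. Esrrb (ENSMUSG00000021255, chromosome 12, 86361117 to 86521628), an orphan nuclear receptor that sustains naive self-renewal, went the other way, at 23.1, 23.6 and 21.4 CPM in the iETV2 line and 307, 308 and 301 CPM in the H188A line. Its log2 difference was 3.80 ± 0.10 (SE, adjusted p = 8.31e-14), and libraries of a line lay close together. Sox2 (ENSMUSG00000074637, chromosome 3, 34649995 to 34652461), a partner of OCT4 in pluripotent and neural cells, was at 46.7, 47.2 and 44.97 CPM in the iETV2 line and 190.2, 202 and 207 CPM in the H188A line, with a log2 difference of 2.16 ± 0.10 (SE, adjusted p = 5.57e-11).

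**Figure D1:**
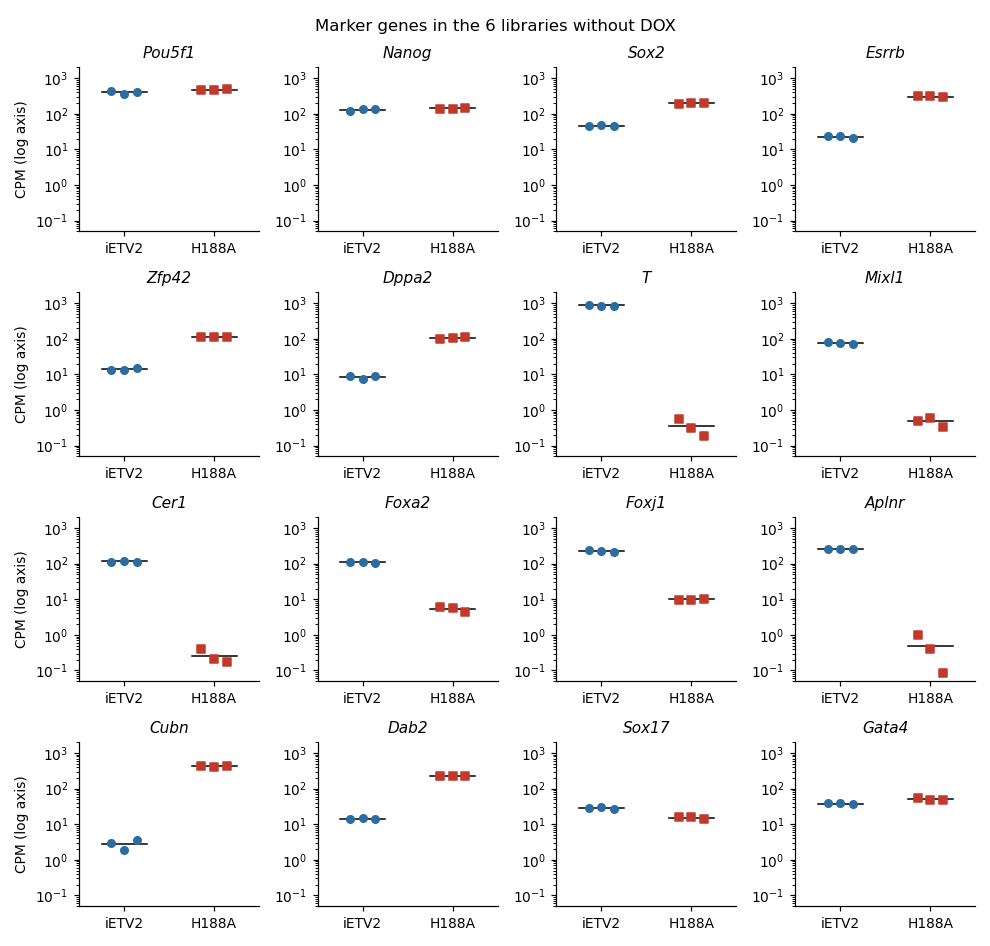
Level of 16 marker genes in each of the 6 libraries without DOX, in CPM on a log axis; circles are iETV2 libraries, squares H188A libraries and lines group means. T and Mixl1 are at 844 to 894 CPM and 70.8 to 79.2 CPM in iETV2 and below 1 CPM in H188A, while Pou5f1 is between 371 and 494 CPM in all 6 libraries.

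Both lines expressed the core of the pluripotency network. Of 12 genes listed and tested, 8 were higher in the H188A line, 1 was lower and 3 did not pass (median log2 difference 2.20). Pou5f1, which encodes OCT4, was at 424, 371 and 417 CPM in the iETV2 line and 469, 477 and 494 CPM in the H188A line. The groups did not overlap, but the difference was small, 0.30 ± 0.11 (SE, adjusted p = 0.0444), and 8 of the 15 alternative analyses did not call it. Nanog was at 124, 134 and 133 CPM in the iETV2 line and 136, 140.0 and 148 CPM in the H188A line (0.17 ± 0.07, adjusted p = 0.0809) and the groups did not overlap here either, though the test did not pass. Sall4 (713 ± 14.8 against 642 ± 37.3 CPM, iETV2 against H188A) and the RNA-binding protein gene Lin28a (619.5 ± 8.75 against 559 ± 29.5 CPM) did not pass. Tdgf1, the Nodal co-receptor Cripto, was lower in H188A (from 322 ± 6.59 to 246 ± 7.98 CPM). The 8 higher genes included Utf1, a chromatin-associated factor of pluripotent cells (from 48.3 ± 3.603 to 314 ± 11.3 CPM), the growth factor gene Fgf4 (from 27.7 ± 1.24 to 140.5 ± 5.64 CPM), Dppa4 (from 8.42 ± 0.561 to 85.7 ± 2.86 CPM) and Dppa2 (from 8.43 ± 0.851 to 104 ± 5.86 CPM). Dppa2 and Dppa4 encode partner proteins that bind and prime promoters in early embryos, and they differed by 3.69 ± 0.09 and 3.39 ± 0.10 on the log2 scale.

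The naive list moved as a whole. Its 23 genes were all tested, 23 were higher in the H188A line and the groups did not overlap for any of them, beside 21.1% higher among all genes tested. The median log2 difference was 2.63, and differences ran from 0.63 for Stat3 to 3.95 for Morc1. Summed over the list, the level was 481 to 498 CPM in iETV2 libraries and 2207 to 2274 CPM in H188A libraries. Zfp42, the REX1 gene used as a reporter of the naive state, was at 13.6, 13.6 and 15.5 CPM in the iETV2 line and 113, 112 and 109 CPM in the H188A line (3.02 ± 0.07 (SE, adjusted p = 7.39e-14)). Dppa5a (from 18.5 ± 1.38 to 166 ± 5.36 CPM), Spp1, which encodes the secreted protein osteopontin (from 7.795 ± 0.896 to 64.3 ± 1.89 CPM), and the threonine dehydrogenase gene Tdh (from 22.4 ± 1.49 to 181 ± 5.61 CPM) had equally tight groups. Among transcription factors, Klf2, Klf4, Klf5, Tfcp2l1, Nr5a2 and Tbx3 differed by 2.52 ± 0.11, 2.40 ± 0.15, 2.46 ± 0.08, 2.30 ± 0.07, 2.63 ± 0.08 and 3.09 ± 0.10 on the log2 scale. The LIF receptor gene Lifr and its downstream genes Stat3 and Socs3 rose less, by 1.02 ± 0.13, 0.63 ± 0.06 and 0.93 ± 0.12. The iETV2 line was not without naive RNAs: Lifr stood at 70.2, 77.1 and 74.5 CPM and Tfcp2l1 at 42.01, 43.8 and 44.3 CPM in its libraries. With DOX, Esrrb was at 61.2, 55.4 and 54.7 CPM in iETV2 and 239, 283 and 281 CPM in the H188A line, so that the lines still did not overlap. Not every naive gene kept this order: with DOX, Tbx3 was at 144, 147 and 125 CPM in iETV2 and 42.6, 42.5 and 41.3 CPM in the H188A line, lower in the latter, and Lifr, at 141, 147 and 133 CPM and 191, 131 and 123 CPM, overlapped between the lines.

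**Figure D2:**
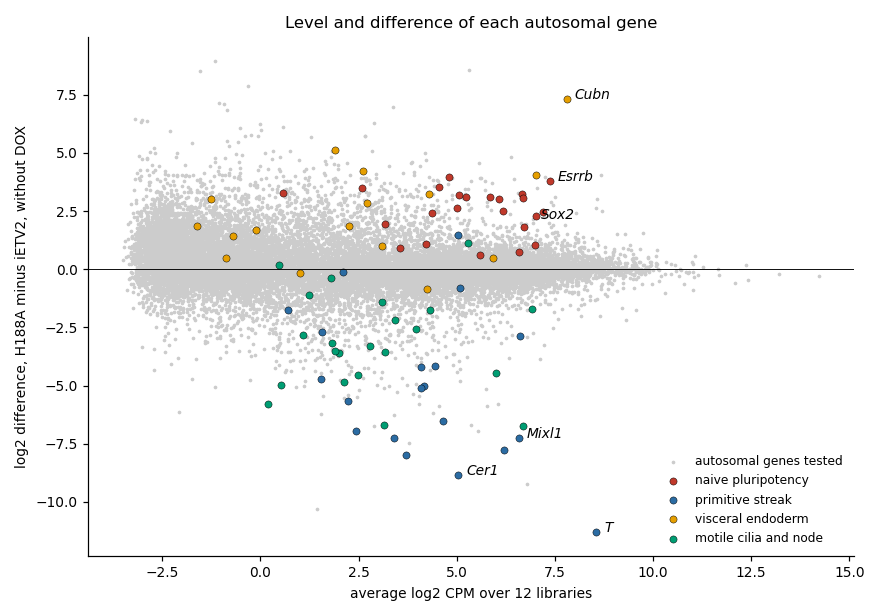
Log2 difference between the untreated lines (H188A minus iETV2) against the average log2 CPM over 12 libraries for each of 20771 autosomal genes, with members of 4 lists in colour. Naive pluripotency genes all lie above 0, and T has a log2 difference of -11.30.

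The promoter of Zfp42 is shown because it was among the list's genes with the octamer letters, the form of site read by OCT4, which both lines expressed. Its 60 bases upstream of the start site, from the RefSeq table (GRCm38.p6, minus strand, chr8:43307162-43307221), carry the letters in capitals, beginning at position -186 from the start.
Zfp42: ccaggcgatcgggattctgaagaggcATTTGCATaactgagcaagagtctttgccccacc
Searched on both strands from 250 bases before to 50 after the start, ATTTGCAT was present in 1.76% of the 14809 autosomal tested genes with a promoter in the table. It was in 1.94% of those of genes higher in H188A, in 1.86% of those of lower genes, in 2 of the 14 naive promoters, of Zfp42 and Spp1, and in 1 of the 14 streak promoters, of Evx1. The motif was chosen after the Zfp42 promoter was read, so the naive count includes the promoter that led to it. The letters TCAAGGTCA, the site of ESRRB, were in 0.344% of all promoters, in 0.328% of those of genes higher in H188A, in 0.248% of those of lower genes and in 0 of the 14 naive promoters.

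Formative and epiblast genes divided. Of 16 listed and tested, 8 were higher in the H188A line, 5 lower and 3 did not pass (median 0.22). Fgf5, a growth factor of the epiblast, was lower (from 136 ± 3.83 to 63.3 ± 2.65 CPM; -1.05 ± 0.09 (SE, adjusted p = 8.37e-08)), as were the ETS factor gene Etv4 (-1.04 ± 0.07), the tight junction gene Cldn6 (-0.91 ± 0.09), the keratin gene Krt18 (-1.87 ± 0.09) and Tead2 (-0.92 ± 0.07). Pou3f1, which encodes OCT6, was higher (from 29.99 ± 2.398 to 83.9 ± 5.68 CPM), as were the ETS factor gene Etv5 (from 171 ± 4.24 to 427 ± 26.7 CPM), the epithelial factor gene Grhl2 (1.59 ± 0.08) and Sall2 (1.24 ± 0.07). Otx2, a factor needed for exit from the naive state, was at 140.0 ± 1.85 against 150.1 ± 13.2 CPM and did not pass (adjusted p = 0.149).

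Of 20 primitive streak genes listed and tested, 18 were lower in the H188A line, 1 was higher and 1 did not pass, beside 20.3% lower among all genes tested. The median log2 difference was -5.06 (-6.08 without H188A replicate 1), and the summed level was 1616 to 1695 CPM in iETV2 libraries and 96.7 to 99.5 CPM in H188A libraries. The marker gene T made up the larger part of the iETV2 sum, so the sum largely restates that gene. Most of the H188A sum came from Lefty2, Nodal and Eomes. Members such as Msgn1 passed the filter on low counts through the line where they are high, so that the size of the count of lower genes is in part set by the filter. The same can hold for genes near 0 in the H188A line in the endoderm, paraxial mesoderm and cilia lists below. It can also hold for genes near 0 in the iETV2 line in the endothelial, visceral endoderm, neural, germline and 2-cell-like lists. The counts of higher genes in those lists are then in part set by the filter. Eomes, a T-box factor that acts beside Mixl1, was lower but stayed above 1 CPM in each H188A library. It was at 129, 123 and 125 CPM in the iETV2 line and 16.04, 15.7 and 17.7 CPM in the H188A line (-2.87 ± 0.08 (SE, adjusted p = 2.20e-13)). Lhx1, a LIM homeobox gene of the anterior streak, was at 201, 209 and 189 CPM in the iETV2 line and 1.46, 1.06 and 0.377 CPM in the H188A line (-7.75 ± 0.25 (SE, adjusted p = 1.27e-12)). Among ligands of the streak, Wnt8a (-5.10 ± 0.18), Wnt3 (-4.14 ± 0.16) and Fgf8 (-6.52 ± 0.18) fell to 0.53 to 1.40 CPM on average. Msgn1, a factor of presomitic mesoderm, was at 8.900, 7.96 and 8.31 CPM in the iETV2 line and 0, 0.08698 and 0 CPM in the H188A line, and Mesp1, which marks nascent mesoderm, went from 2.98 ± 0.316 to 0.0694 ± 0.0918 CPM. Nodal, the ligand that patterns the streak, was lower by less (from 43.2 ± 2.202 to 23.5 ± 1.52 CPM; -0.82 ± 0.08). Lefty2, a Nodal antagonist, was the member that was higher (from 17.00 ± 0.3604 to 45.2 ± 1.81 CPM), and Fgf17 did not pass (4.98 ± 0.458 against 4.44 ± 0.153 CPM).

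Mesp1 was the one streak gene whose promoter window held the T-box letters TCACACCT. These 30 bases across its start (GRCm38.p6, minus strand, chr7:79793567-79793596, RefSeq table) show the match in capitals.
Mesp1: aggggcccgctTCACACCTagggctcagga
The same letters were in 1.30% of all 14809 promoters, in 1.15% of those of genes lower in H188A, in 1.04% of those of higher genes and in 1 of the 14 streak promoters in the table.

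Definitive endoderm and axial genes followed the streak, and this list shares Cer1 and Gsc with the streak list. Of 12 listed and tested, 10 were lower and 2 did not pass (median -4.53); without H188A replicate 1, 1 was higher. Cer1, a secreted antagonist of Nodal, BMP and WNT, was at 114, 119 and 115 CPM in the iETV2 line and 0.397, 0.209 and 0.174 CPM in the H188A line (-8.84 ± 0.20 (SE, adjusted p = 5.49e-14)). Foxa2, a forkhead factor of endoderm and node, was at 111, 113 and 102 CPM in the iETV2 line and 6.15, 5.72 and 4.49 CPM in the H188A line (-4.28 ± 0.23 (SE, adjusted p = 4.87e-10)), and Foxa1 went from 26.7 ± 1.401 to 0.802 ± 0.425 CPM. Noto, the notochord homeobox gene, was at 34.3, 34.4 and 34.4 CPM in the iETV2 line and 0.769, 0.261 and 0.08699 CPM in the H188A line, with no overlap (-6.67 ± 0.37 (SE, adjusted p = 7.60e-10)). The morphogen gene Shh (from 28.2 ± 0.747 to 0.313 ± 0.441 CPM), the BMP antagonist gene Chrd (from 114 ± 1.27 to 4.04 ± 0.751 CPM) and the chemokine receptor gene Cxcr4 (from 39.3 ± 2.29 to 5.85 ± 0.353 CPM) were lower too. Sox17, which is shared with extraembryonic endoderm, was at 28.8, 30.4 and 26.8 CPM in the iETV2 line and 16.2, 15.8 and 14.3 CPM in the H188A line and differed by -0.85 ± 0.20 (SE, adjusted p = 0.0033), while Gata6 (48.4 ± 3.57 against 35.4 ± 2.36 CPM) did not pass.

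Genes of motile cilia and the node were among those that set the lines apart. Of 22 listed and tested, 19 were lower in the H188A line, 1 was higher and 2 did not pass (median -3.24). Among all genes tested, 20.3% were lower. The summed level was 1155 to 1226 CPM in iETV2 and 183 to 199.6 CPM in H188A libraries. Foxj1, the master regulator of motile ciliogenesis, was at 236, 223 and 217 CPM in the iETV2 line and 9.84, 9.36 and 10.4 CPM in the H188A line (-4.46 ± 0.11 (SE, adjusted p = 7.81e-14)). Pkd1l1, a channel subunit that senses flow at the node, was at 346, 394 and 355 CPM in the iETV2 line and 4.76, 3.096 and 2.33 CPM in the H188A line (-6.75 ± 0.19 (SE, adjusted p = 2.34e-13)). Dynein, radial spoke and docking genes were lower as well, among them Dnah11 (-2.58 ± 0.11), Drc1 (-3.56 ± 0.18) and Cfap206 (-4.56 ± 0.21). Rfx2, a ciliary transcription factor, was the member that was higher (from 26.98 ± 0.273 to 56.5 ± 2.63 CPM), and its relative Rfx3 was lower (from 232 ± 15.9 to 68.6 ± 4.25 CPM). In iETV2 with DOX, Foxj1 stood at 13.7, 14.2 and 13.7 CPM and Noto at 1.55, 1.099 and 2.22 CPM, below the untreated iETV2 levels, whereas T stayed at 695, 652 and 689.9 CPM.

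Of 14 paraxial mesoderm genes listed and tested, 11 were lower, 1 was higher and 2 did not pass (median -2.96). Tbx6, Msgn1 and Mesp2 of this list are also in the streak list. Rspo3, a WNT potentiator, fell from 71.2 ± 2.06 to 0.568 ± 0.0666 CPM, and the forkhead genes Foxc1 (-4.99 ± 0.27) and Foxc2 (-6.22 ± 0.41), the T-box gene Tbx6 (-4.20 ± 0.12) and the Notch ligand gene Dll3 (-3.31 ± 0.14) were lower. Tcf15, a basic helix-loop-helix factor of somites that is also found in cells leaving naive pluripotency, was higher (from 1.05 ± 0.201 to 7.07 ± 0.702 CPM). Cardiac and lateral mesoderm genes showed no common direction: of 19 listed, 18 were tested, 4 were higher, 6 lower and 8 did not pass (median 0.03). That was 22.2% higher and 33.3% lower, beside 21.1% and 20.3% of all genes tested. Bmp4 (1.31 ± 0.13) was among the higher, and Tbx20 (-2.29 ± 0.27), Msx1 (-1.64 ± 0.10) and Isl1 (-1.66 ± 0.15) among the lower. Nkx2-5 was too low to be tested.

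**Figure D3:**
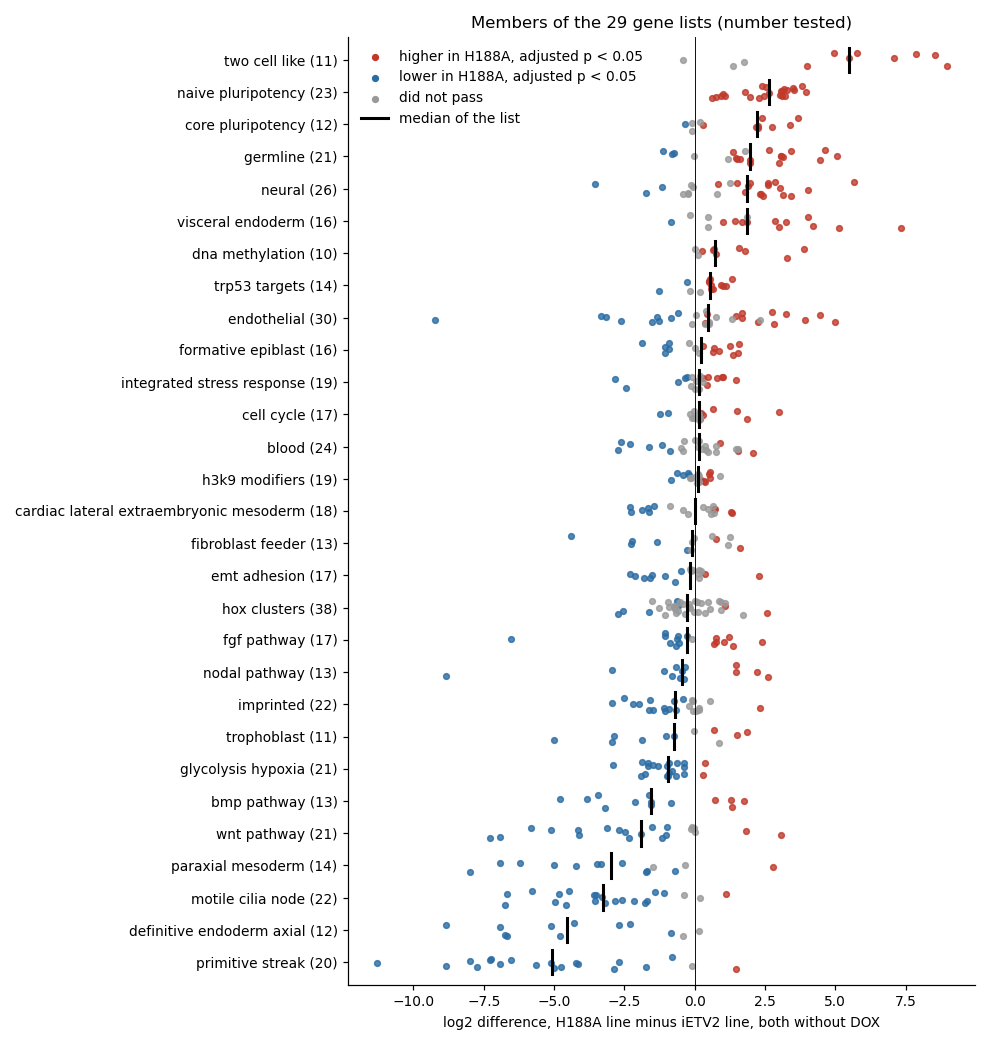
Log2 difference (H188A minus iETV2, without DOX) of each tested member of 29 gene lists, with list medians as black bars. Red points were higher in H188A, blue points lower, and grey points did not pass. The primitive streak list has the lowest median, -5.06, and all 23 naive genes are red.

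Signalling lists followed this division in part. They share members with the lists above, such as Sp5, Cer1, Chrd and Fgf8, so their counts are not separate from those above. In the WNT list, 15 of 21 genes were lower, 2 higher and 4 did not pass (median -1.90). The targets Sp5 (from 22.4 ± 3.76 to 0.1502 ± 0.0925 CPM), Axin2 (from 60.8 ± 1.43 to 20.2 ± 0.834 CPM) and Lgr5 (from 49.2 ± 2.596 to 0.949 ± 0.7797 CPM), the inhibitor genes Nkd1 (-2.33 ± 0.13) and Dkk1 (-4.13 ± 0.17), and the ligand gene Wnt5a (-3.11 ± 0.16) were lower. Notum, which inactivates WNT ligands, and Sfrp2, which binds them, were higher (from 2.22 ± 0.253 to 17.9 ± 2.08 CPM and from 40.2 ± 0.221 to 138 ± 9.86 CPM). The nuclear mediators Lef1 (134 ± 6.66 against 128 ± 11.9 CPM) and Tcf7 (144 ± 5.96 against 135 ± 9.82 CPM) did not pass.

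In the Nodal list 9 of 13 genes were lower and 4 higher (median -0.46). The antagonist gene Lefty1 (from 57.7 ± 2.42 to 26.4 ± 0.901 CPM) and the co-factor gene Foxh1 (-0.65 ± 0.08) were among the lower. The ligand gene Gdf3 (from 11.5 ± 0.7702 to 68.4 ± 1.18 CPM), the convertase gene Pcsk6 (from 9.49 ± 0.553 to 42.2 ± 1.43 CPM) and the inhibitor gene Smad7 (from 33.4 ± 0.743 to 88.5 ± 3.75 CPM) were higher.

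Of 13 BMP genes 9 were lower and 4 higher (median -1.56). Bmp2 (from 22.4 ± 0.799 to 1.52 ± 0.139 CPM), Bmp7 (from 44.7 ± 0.955 to 3.88 ± 1.05 CPM) and the target genes Id1 (-2.11 ± 0.13), Id3 (-1.54 ± 0.10) and Smad6 (-1.56 ± 0.12) were lower, while Bmp4 (from 6.11 ± 0.682 to 14.6 ± 0.906 CPM) and Id2 (0.71 ± 0.19) were higher. The FGF list divided, with 7 of 17 higher, 9 lower and 1 that did not pass (median -0.29). Fgf4, Fgfr2 (from 21.2 ± 0.9801 to 47.3 ± 0.629 CPM) and the feedback inhibitor genes Spry1 (1.03 ± 0.08) and Spry2 (0.76 ± 0.08) were higher. The phosphatase gene Dusp6 (-0.65 ± 0.07), the inhibitor gene Il17rd (-0.89 ± 0.09) and Fgf5 were lower.

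The endothelial list, the fate that ETV2 directs, moved in both directions before any inducer was given. Of 30 genes listed and tested, 12 were higher in the H188A line, 9 lower and 9 did not pass (median 0.46). This median was 0.08 with the receptor sum as a covariate, 0.16 without H188A replicate 1 and 0.90 without iETV2 replicate 3. Aplnr, the apelin receptor gene of mesoderm, was at 262, 262 and 264 CPM in the iETV2 line and 0.992, 0.4001 and 0.08699 CPM in the H188A line (-9.22 ± 0.28 (SE, adjusted p = 5.67e-13)). The VEGF receptor genes Flt1 (from 138 ± 4.96 to 15.1 ± 2.19 CPM) and Kdr (from 7.92 ± 1.27 to 3.26 ± 2.11 CPM) were lower too, as were Ets1 (-1.28 ± 0.11) and Sox18 (-3.32 ± 0.29). Tek, the angiopoietin receptor gene, was at 2.03, 2.12 and 2.301 CPM in the iETV2 line and 30.4, 32.1 and 31.2 CPM in the H188A line (3.91 ± 0.09 (SE, adjusted p = 3.58e-14)). Pecam1, an adhesion gene that naive stem cells also express, went from 5.76 ± 0.675 to 52.7 ± 0.549 CPM, and Eng (from 6.79 ± 0.573 to 45.8 ± 1.15 CPM), Mmrn2 (from 0.682 ± 0.244 to 14.00 ± 1.37 CPM), Sox7 (from 0.601 ± 0.473 to 16.8 ± 0.8198 CPM) and Cdh5 (from 1.05 ± 0.344 to 4.68 ± 0.8298 CPM) were higher. Of 24 blood genes, 3 were higher, 6 lower and 15 did not pass (median 0.14); 5 were higher without H188A replicate 3. The share higher lay below, and the share lower near, those of all genes tested (21.1% and 20.3%), and the median changed sign in 6 of the 15 alternatives, to -0.48 without H188A replicate 1. Runx1 (from 4.88 ± 0.4602 to 19.7 ± 1.03 CPM) and Myb (from 25.5 ± 1.29 to 71.7 ± 3.97 CPM) were higher and Ikzf1 (from 14.7 ± 1.96 to 2.38 ± 0.845 CPM), Epor (-2.71 ± 0.25) and Lmo2 (-1.61 ± 0.17) lower. The embryonic globin genes Hba-x and Hbb-bh1, whose near-identical relatives make their counts uncertain, were below 1 CPM on average in both lines.

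Visceral endoderm genes were higher in the H188A line: of 16 listed and tested, 11 were higher, 1 lower and 4 did not pass (median 1.85, and 2.63 without iETV2 replicate 3). Cubn, which encodes the uptake receptor cubilin, was at 2.904, 1.87 and 3.59 CPM in the iETV2 line and 422, 418 and 425 CPM in the H188A line (7.33 ± 0.30 (SE, adjusted p = 2.13e-11)). Its partner genes Amn (from 0.609 ± 0.286 to 10.4 ± 1.54 CPM) and Dab2, an endocytic adaptor, were higher, Dab2 at 14.02, 14.8 and 14.1 CPM in the iETV2 line and 234, 220.2 and 225 CPM in the H188A line (4.04 ± 0.25 (SE, adjusted p = 2.08e-09)). The lipoprotein gene Apob (from 3.24 ± 0.421 to 29.5 ± 4.62 CPM), the transthyretin gene Ttr (from 0.177 ± 0.0864 to 6.19 ± 1.09 CPM) and Hnf4a (from 2.12 ± 0.891 to 7.19 ± 0.668 CPM) rose from low levels. The lineage factor Gata4 was at 39.3, 38.7 and 36.1 CPM in the iETV2 line and 56.3, 48.6 and 48.96 CPM in the H188A line and did not pass (0.48 ± 0.25 (SE, adjusted p = 0.151)), and Sox17 was the member that was lower. The summed level of the list was 100.3 to 101 CPM in iETV2 and 781 to 818 CPM in H188A libraries. Most of the H188A sum came from Cubn and Dab2, so it does not stand for the list as a whole.

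Further genes were picked out after their values were seen. Lrp2, the megalin gene, went from 90.3 ± 4.48 to 697 ± 23.01 CPM. The laminin genes Lama1 (from 45.99 ± 0.738 to 726 ± 46.4 CPM) and Lamc1 (from 292 ± 15.4 to 799 ± 29.5 CPM), the collagen IV genes Col4a1 (from 97.3 ± 4.23 to 578 ± 27.4 CPM) and Col4a2 (from 37.03 ± 1.37 to 268 ± 16.6 CPM) and Sparc (from 109 ± 4.495 to 597 ± 6.98 CPM) were higher as single genes, and no list of such genes was counted. The 6 largest increases were taken among genes with an average log2 CPM of at least 1 over the 12 libraries. Besides Cubn they were Srgn, a proteoglycan gene (from 0.185 ± 0.0856 to 64.2 ± 0.483 CPM), and the water channel gene Aqp8 (from 0.144 ± 0.168 to 15.2 ± 1.61 CPM). The others were the protease gene Habp2 (from 0.201 ± 0.192 to 13.4 ± 1.67 CPM), the FGF co-receptor gene Klb (from 0.229 ± 0.0149 to 11.98 ± 1.09 CPM) and the tubulin gene Tuba3a (from 0.251 ± 0.0501 to 12.7 ± 1.12 CPM). All but Cubn were below 1 CPM on average in iETV2, so the size of their increase rests on those low levels. Such genes can have passed the filter through the H188A line. The 6 largest decreases were T, Defa30, Aplnr, Cer1, Msgn1 and Lhx1. Defa30 had 473 counts over the iETV2 libraries and 0 over the H188A libraries, at least 158-fold lower against a floor of 3 counts over the group; it has near-identical paralogs and is uncertain.

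The H188A libraries with DOX were not used by the rule and show how these genes vary within the line. There the visceral endoderm sum was 1271, 628 and 617 CPM. Cubn was at 656, 323 and 315 CPM, Lama1 at 1225, 488 and 486 CPM, Srgn at 162, 52.7 and 52.8 CPM, and Gata6 at 63.6, 28.9 and 31.02 CPM. The first of these libraries stood above the others in each of these genes. Its naive sum was 1933 CPM, against 2028 and 2044 CPM in the others.

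**Figure D4:**
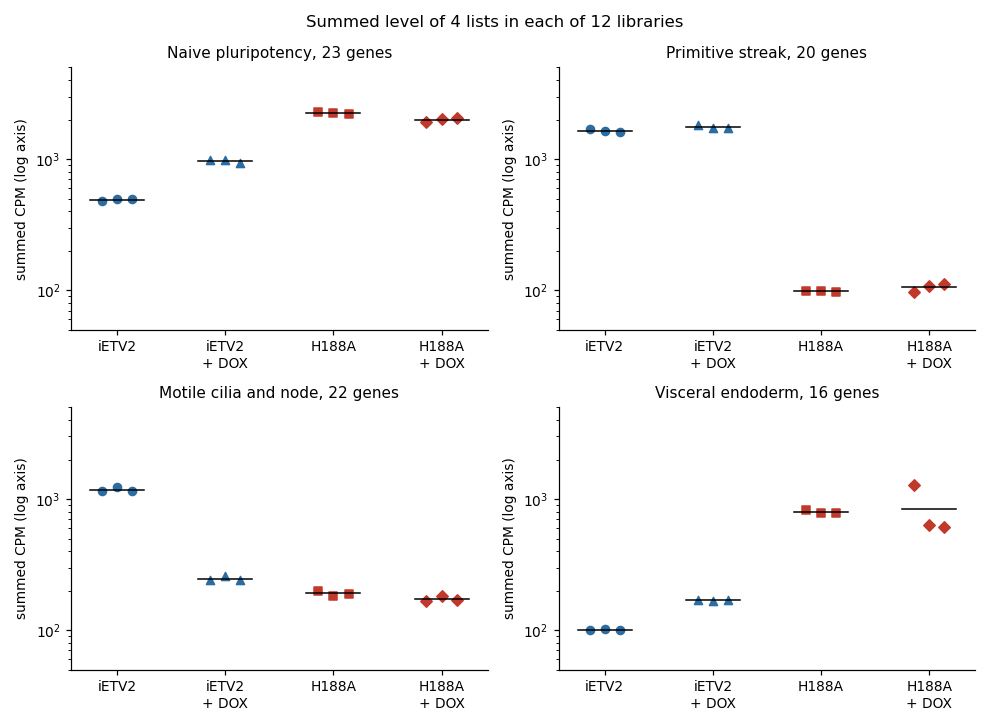
Summed CPM (log axis) of 4 gene lists in each of 12 libraries, by line and treatment, with group means as lines. The primitive streak sum is 96.2 to 111 CPM in the 6 H188A libraries and 1616 to 1823 CPM in the 6 iETV2 libraries. In 1 H188A library with DOX the visceral endoderm sum is 1271 CPM. Without DOX, T makes up the larger part of the streak sum in iETV2. Cubn and Dab2 make up most of the visceral endoderm sum in H188A without DOX.

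Neural genes were also higher in the H188A line, at lower levels. Of 26 listed and tested, 16 were higher, 3 lower and 7 did not pass (median 1.85). Sox1, the early neuroectoderm factor, was at 3.08, 3.59 and 3.59 CPM in the iETV2 line and 27.8, 30.4 and 28.6 CPM in the H188A line (3.13 ± 0.17 (SE, adjusted p = 5.71e-10)). The neuronal tubulin gene Tubb3 (from 7.37 ± 0.612 to 43.1 ± 1.59 CPM), Neurod1 (from 1.67 ± 0.279 to 17.05 ± 0.908 CPM), Neurod4 (from 0.157 ± 0.0894 to 7.36 ± 0.9003 CPM), the midbrain homeobox gene En1 (from 0.561 ± 0.235 to 8.55 ± 1.55 CPM), Elavl3 (2.87 ± 0.20) and Pax6 (2.61 ± 0.25) were higher. Six3 (from 9.702 ± 0.427 to 0.824 ± 0.329 CPM), Irx3 (from 16.1 ± 1.54 to 4.77 ± 0.755 CPM) and the intermediate filament gene Nes (from 97.1 ± 4.495 to 42.4 ± 2.005 CPM) were lower. The summed level was 200 to 209.5 CPM in iETV2 and 260 to 275 CPM in H188A libraries.

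Germline genes, several of which are held silent by promoter methylation in somatic cells, were higher in the H188A line for 15 of 21 tested (22 listed; 3 lower, 3 did not pass, median 1.98). The meiotic genes Hormad1 (from 0.451 ± 0.0786 to 14.7 ± 2.39 CPM), Smc1b (from 1.12 ± 0.0833 to 26.4 ± 3.33 CPM) and Sycp3 (from 7.88 ± 0.541 to 29.9 ± 2.31 CPM), the piRNA-pathway gene Piwil2 (from 1.17 ± 0.233 to 9.72 ± 0.438 CPM) and Dazl (4.46 ± 0.39) were among them, and Rec8 (-0.74 ± 0.10), Dnd1 (-1.14 ± 0.14) and Tdrkh (-0.82 ± 0.15) were lower. Genes of the 2-cell-like state, a rare state in naive cultures, numbered 12, of which 11 were tested; 8 were higher and 3 did not pass. Zfp352 had 0 counts over the iETV2 libraries and 182 over the H188A libraries, at least 60.6-fold higher against the floor, and Zscan4b had 0 and 135 counts, at least 45.0-fold higher. Zscan4e had 1 and 317 counts, a ratio of 317 (95% counting interval 56.5 to 12556). The Zscan4 genes are near-identical copies, so reads may be divided among them, and all were below 2 CPM on average. The list median was 5.48 on the log2 scale, with genes at 0 also taken at their bound.

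DNA methylation genes were higher for 8 of 10 tested, with 2 that did not pass and none lower (median 0.72). Zfp57 is also in the naive list, and Dnmt3a and Dnmt3b are in the formative list, so this count is not separate from theirs. Dnmt3l, the cofactor of de novo methylation, was at 6.22, 6.11 and 6.27 CPM in the iETV2 line and 94.4, 85.1 and 89.1 CPM in the H188A line (3.90 ± 0.08 (SE, adjusted p = 8.64e-15)). Tet1 (from 475 ± 16.7 to 1358 ± 79.1 CPM), Dnmt3a (from 194 ± 2.73 to 299.9 ± 12.6 CPM), Dnmt3b (from 661 ± 13.2 to 999 ± 70.4 CPM) and Zfp57, which protects imprints (from 44.8 ± 0.429 to 151 ± 9.72 CPM), were higher. Genes that write, erase or read H3K9 methylation showed no common direction: 6 of 19 were higher, 5 lower and 8 did not pass (median 0.13). These shares, 31.6% higher and 26.3% lower, stand beside 21.1% and 20.3% of all genes tested. Besides Kdm4b and Kdm4c, Trim28, the KRAB corepressor gene (from 516 ± 8.48 to 734 ± 21.6 CPM), and the HP1 gene Cbx1 (0.50 ± 0.08) were higher, and Cbx5 (from 870.0 ± 36.3 to 629.7 ± 23.7 CPM) and Kdm7a (from 115 ± 5.96 to 72.6 ± 3.83 CPM) lower. Without a filter on low counts 1 of the list was higher, Trim28 and Cbx1 no longer among the calls, and 4 were lower, and 3 were lower without iETV2 replicate 2, H188A replicate 1 or H188A replicate 2.

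Imprinted genes were lower for 13 of 22 tested, higher for 1, with 8 that did not pass (median -0.69). Grb10, a growth inhibitor gene, was at 714, 708 and 681 CPM in the iETV2 line and 159, 171 and 179 CPM in the H188A line (-1.99 ± 0.10 (SE, adjusted p = 2.05e-10)), and the zinc finger gene Peg3 and its neighbour Usp29 went from 795 ± 45.1 to 169 ± 7.78 CPM and from 33.9 ± 0.959 to 5.81 ± 0.659 CPM. H19 was higher (from 3.95 ± 0.697 to 18.7 ± 1.63 CPM) while Igf2, which shares its control region, was lower (from 6.76 ± 0.477 to 2.198 ± 0.489 CPM). Meg3 (608 ± 42.8 against 549 ± 2.37 CPM) and Rian (1015 ± 42.6 against 847 ± 51.8 CPM), of the Dlk1 cluster, did not pass.

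Glycolysis and hypoxia-response genes were lower for 19 of 21 tested and higher for 2 (median -0.97). Ldha, lactate dehydrogenase, went from 1108 ± 51.5 to 335 ± 22.2 CPM, the enolase gene Eno1 from 3001 ± 206 to 1538 ± 80.4 CPM, and the glucose transporter gene Slc2a1 from 928 ± 31.4 to 469.6 ± 11.1 CPM. The hypoxia-response genes Ndrg1 (from 146 ± 5.26 to 19.1 ± 1.17 CPM), Egln3 (from 78.6 ± 3.45 to 22.1 ± 2.09 CPM), Bnip3 (from 210.3 ± 9.63 to 73.1 ± 2.58 CPM) and Vegfa (from 82.4 ± 1.096 to 32.4 ± 1.11 CPM) were lower, whereas Hk1 (0.36 ± 0.07) and Pdk1 (0.28 ± 0.07) were higher. Without a filter on low counts neither was called (adjusted p = 0.401 and 0.667, edgeR). Epas1, which encodes the hypoxia factor HIF2A and was singled out after its values were seen, was higher (from 5.67 ± 0.289 to 154 ± 4.45 CPM).

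Targets of p53 were higher for 10 of 14, lower for 2, with 2 that did not pass (median 0.56). Mdm2 (from 109.6 ± 4.88 to 201 ± 14.5 CPM), Phlda3 (from 22.1 ± 0.384 to 52.95 ± 2.34 CPM) and Plk2 (from 26.1 ± 0.873 to 53.8 ± 2.55 CPM) were higher, and Cdkn1a, which encodes p21, was lower (from 64.7 ± 3.75 to 50.96 ± 1.89 CPM). In the cell cycle list 7 of 17 were higher, 2 lower and 8 did not pass (median 0.15), and 4 were higher without iETV2 replicate 2 or without H188A replicate 2. Shares of all genes tested, for this list and the stress response list below, were 21.1% higher and 20.3% lower. Cdkn2a, the p16 and p19ARF gene, rose from 1.53 ± 0.236 to 11.6 ± 0.701 CPM, Ccne1 was higher (0.63 ± 0.09), and Cdkn1b (from 128 ± 3.67 to 51.9 ± 1.76 CPM) and Ccnd2 (-0.94 ± 0.18) were lower. Mki67 (873 ± 40.7 against 748 ± 50.8 CPM) and Top2a (591 ± 20.4 against 559 ± 28.96 CPM), which mark dividing cells, did not pass. Integrated stress response genes were higher for 7 and lower for 5 of 19 (median 0.16), and higher for 4 without iETV2 replicate 3, with Ddit4 (from 214 ± 0.8202 to 29.3 ± 2.303 CPM) and Vldlr (from 61.9 ± 1.52 to 11.1 ± 0.822 CPM) lower, Atf3 higher (from 6.51 ± 0.442 to 17.4 ± 1.12 CPM) and Atf4 not passing.

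Adhesion and transition genes were lower for 8 of 17, higher for 2, and 7 did not pass (median -0.16). The mesenchymal genes Cdh2 (from 282 ± 11.02 to 62.5 ± 2.47 CPM), Vim (from 375 ± 7.68 to 125 ± 6.43 CPM) and Snai1 (from 25.98 ± 0.774 to 7.11 ± 0.157 CPM) were lower, and E-cadherin, Cdh1, did not pass (937 ± 25.7 against 867 ± 36.9 CPM). HOX genes were low in both lines: of 39 listed, 38 were tested, 2 were higher, 5 lower and 31 did not pass (median -0.27). Both shares, 5.26% and 13.2%, lay below those of all genes tested (21.1% higher and 20.3% lower). Hoxb1, an early HOX gene of the streak, went from 30.6 ± 2.29 to 5.07 ± 0.401 CPM (-2.53 ± 0.14 (SE, adjusted p = 9.12e-10)). The HOX median was -0.97 without H188A replicate 1, 0.11 without iETV2 replicate 3 and 0.01 without H188A replicate 3. The lower genes numbered 3 without iETV2 replicate 1 or 2, and 2 without iETV2 replicate 3, H188A replicate 2 or H188A replicate 3, and 4 were higher without iETV2 replicate 3. Trophoblast genes were higher for 3 and lower for 6 of 11 tested (13 listed, median -0.75), and the lower ones included Cdx2 (from 13.1 ± 1.64 to 0.417 ± 0.159 CPM), Krt8 (from 189 ± 10.8 to 23.7 ± 2.39 CPM) and Eomes, which the streak also uses. Of 14 fibroblast genes, which would mark feeder cells, 13 were tested, 2 were higher, 5 lower and 6 did not pass (median -0.08). Their sum was 87.5 to 103 CPM in iETV2 and 47.6 to 61.5 CPM in H188A libraries, Col1a1 was at 5.58 ± 3.66 against 5.19 ± 3.500 CPM, and Lum was too low to be tested. Without iETV2 replicate 2 or 3 or H188A replicate 1, 1 was higher. The part of such cells in the other differences was not tested.

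A pair of chromosome stretches stood apart from the other autosomal sequence. In 10 Mb stretches with at least 20 genes of average log2 CPM 3 or more, the median log2 difference lay between -0.31 and 0.25 except in 4 stretches below -0.5, of which 1 was on chromosome 1 and 3 were adjacent on chromosome 13 (GRCm38). On chromosome 1, from 170 to 180 Mb, 38 of 48 such genes were lower in the H188A line, 8 were higher and 2 did not pass, and the median was -1.18, a 2.26-fold lower level. On chromosome 13, from 10 to 40 Mb, 93 of 112 genes were lower, 3 higher and 16 did not pass, with a median of -0.63, a 1.55-fold lower level. This stretch holds the Hist1 histone cluster: its 45 Hist1 genes had a median of -0.54 (35 lower), and its 67 other genes a median of -0.70 (58 lower). Among the 9585 such genes elsewhere 30.2% were lower, 29.2% were higher and the median was -0.01. The stretches were picked by their medians after the values were seen, so these are descriptions without a test.

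In steps of 2 Mb on chromosome 1 the edges were sharp. The medians of the 6 steps that begin at 166, 168, 170, 172, 174 and 176 Mb were -1.01, -1.49, -1.23, -1.32, -0.74 and -1.59, from 3 to 17 genes each. The step before them, at 164 Mb, was at -0.17 and the step after them, at 178 Mb, at 0.15. On chromosome 13 all 14 genes before 10 Mb were also lower (median -0.74), and the steps at 40 and 42 Mb were at -0.26 and -0.03.

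The shift was shared by all libraries of the line. Relative to the iETV2 mean, the median gene of the chromosome 1 stretch was at -1.27, -1.23 and -1.18 in the H188A libraries on the log2 scale of CPM with 0.5 added, and at 0.00, -0.01 and 0.01 in the iETV2 libraries. For chromosome 13 the values were -0.65, -0.67 and -0.67 against 0.04, 0.01 and -0.01. On the same scale, the libraries with DOX gave medians of -1.12 and -0.47 between the lines. The chromosome 1 genes included Copa, a coat protein gene (332 ± 15.9 to 159 ± 3.85 CPM), and Vangl2, a planar polarity gene (137 ± 3.67 to 43.7 ± 2.88 CPM). Hnrnpu, at 178 Mb and past the edge, was at 1020 ± 30.1 CPM in iETV2 and 1160 ± 33.99 CPM in H188A. On chromosome 13, the linker histone genes Hist1h1e and Hist1h1c went from 608 ± 35.3 to 328 ± 9.995 CPM and from 525 ± 21.1 to 284 ± 8.88 CPM. Of the listed genes above, Foxc1 lies in the chromosome 13 stretch and Nhlh1, which was higher in H188A (1.91 ± 0.50), in that of chromosome 1. Leaving out both stretches left 4355 higher and 4050 lower genes.

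**Figure D5:**
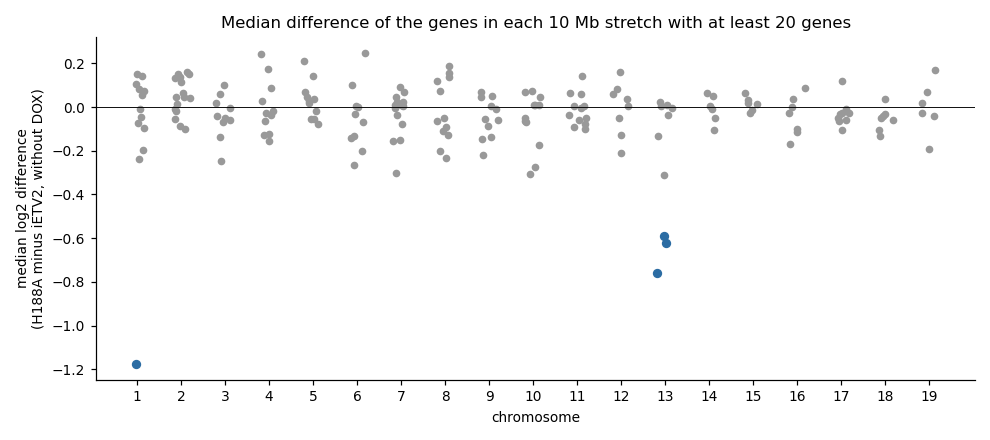
Median log2 difference (H188A minus iETV2, without DOX) of the genes in each 10 Mb stretch with at least 20 well-expressed genes, by chromosome. The 4 blue points, on chromosomes 1 and 13, lie below -0.5, and all other stretches lie between -0.31 and 0.25.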

How the data were processed

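Total RNA was isolated with a column kit, per the labels' protocols. For each library the authors deposited a table of unnormalized counts for 55487 Ensembl genes, on GRCm38. The submitters' processing notes name STAR 2.7.10b, featureCounts 2.0.6 and HTSeq 2.0.3 among other tools; which made the counts, and the strand setting, are not given in the sources used here, so overlapping and antisense genes and near-identical copies are uncertain. Symbols matched 55141 genes. In RefSeq's GRCm38.p6 table, 36164 were placed on an autosome by Ensembl identifier, or else by symbol or synonym.

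The 12 libraries of experiments 1 and 2 were fitted together with 4 group means in edgeR 4.0.16 (R 4.3.3; filterByExpr by group, TMM, quasi-likelihood F test), which shares 1 estimate of the spread. P-values were adjusted by Benjamini-Hochberg over all 25516 genes tested, with a threshold of 0.05. SE is the log2 difference divided by the square root of F; ± beside CPM is the SD of 3 libraries, and beside a log2 difference it is the SE. CPM were computed from library totals. Intervals and floors cover counting error only. The script was tested on simulated counts. Figures used matplotlib 3.10.9.

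The members and the 29 lists were chosen with earlier results of these data known. Genes named were those marking the lines, the targeted family, the 6 largest changes per direction (average log2 CPM at least 1, no overlap, informative symbol), and up to 4 called members per list and direction with the smallest adjusted p. Members beyond these account for the rest of a list. Some genes that this rule picked are not reported here. Alternatives were DESeq2 1.42.0, limma 3.58.1 with library weights, other filters and scaling, a replicate block, the receptor sum as a covariate, the 6 libraries alone and leaving out each library.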

Additional observations from a re-analysis of the deposited data

How the results depend on the processing

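The count of changed genes was 7259 to 8331 without each of the 6 libraries in turn (3732 to 4202 higher, 3459 to 4138 lower; by at least 1 log2, 1563 to 2024 higher and 1179 to 1595 lower). It was 8782 with DESeq2, 7981 with the 6 libraries alone and 12033 with limma and library weights. Without a filter on low counts 6785 genes changed, and the higher genes numbered 2614. With the receptor sum as a covariate 10250 genes changed, and 2222 were lower by at least 1 log2. The causes of these shifts were not tested. Leaving out both libraries with the highest receptor sum of their group, an alternative chosen after seeing the data, gave 8035.

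Of the 172 called genes that the naming rule picked, 18 lost the call in at least one alternative and none changed direction. The rule favours members with the smallest adjusted p, so this count does not stand for all called list members. Called members that it did not pick, such as Dnmt1, Mcm3 and Kdm3b, also lost the call in some alternatives. The median of 25 lists kept its sign in each alternative. The cardiac (-0.28 to 0.48), blood (-0.48 to 0.58), fibroblast (-0.23 to 0.17) and HOX (-0.97 to 0.11) medians did not. Without a filter 3 cell cycle and 3 stress response genes were higher; with the receptor covariate 14 HOX genes were lower.

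With the replicate number as a block, 8229 genes changed. Deviations of same-numbered untreated libraries of the 2 lines correlated at -0.10, -0.12 and -0.64. Untreated iETV2 replicate 3 and H188A replicate 1, with the highest receptor sums of their groups, correlated at 0.64. Those with the lowest sums, iETV2 replicate 2 and H188A replicate 3, correlated at 0.60. Same-numbered libraries without and with DOX correlated at 0.08, 0.32 and 0.60 in iETV2 and at -0.25, 0.15 and 0.38 in H188A. As deviations went with the receptor sums, this check cannot tell whether the numbers pair the samples. Depth and the receptor background limit what can be said of levels under 1 CPM.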
